A study of Mus musculus with 6 samples.

Results

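Genes named Zfp and a number encode a large group of zinc finger proteins in the mouse, and 32 of their 370 protein-coding entries in the GENCODE M1 annotation had a Dppa2 peak at a transcription start site (TSS) in mouse embryonic stem cells (ESCs). A gene was counted as Dppa2-bound when the midpoint of a peak in the deposited V5-Dppa2 list lay within 1000 bp of the TSS of any of its transcripts on mm9, and Zfp42 was left out. The 32 entries carry 31 symbols and 31 distinct peaks, as Zfp664 has 2 overlapping entries at the same peak. These genes were chosen by the peak positions of the same list, so peak scores and positions are given as a description. The bound share was 8.65% (95% exact Clopper-Pearson interval 5.99 to 12.0%), and of all 22367 protein-coding genes annotated on chromosomes with peaks 3169, or 14.2%, were bound. Intervals for shares cover counting error only, and Zfp genes that arose by duplication are not independent of each other.

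The peaks come from 1 library of CGR8 ESCs, a mouse line grown without feeders with leukaemia inhibitory factor and serum, in which Dppa2 with an N-terminal V5 tag was expressed from a pPyCAG vector in stable clones selected with puromycin. The tagged protein was thus driven by a strong constitutive promoter, in cells that also have their own Dppa2 gene. The control was a V5 ChIP on CGR8 cells without a tag, and it entered only through the authors' peak calling. Libraries of H3K4me1, H3K4me3, H3K27ac and H3K9me3 from CGR8 cells were not analysed here. There is 1 library per condition, so there is no replicate error and no test, and the sequencing depth is unknown. Of the 3336 peaks 98.4% had the midpoint within 1000 bp of a TSS of an annotated gene, and every peak is named TSS and a number, so the list may hold only the promoter part of the called peaks. Distances to the nearest peak are therefore distances within this list.

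Most Zfp proteins bind DNA through C2H2 zinc fingers, short folds in which a pair of cysteines and a pair of histidines hold a zinc ion and which often stand in long tandem arrays. Many also carry a KRAB domain, which recruits the co-repressor Trim28 and, through it, H3K9 methylation. Such KRAB zinc finger proteins are known for silencing retroelements and protecting imprinted loci in ESCs, and their genes, multiplied by tandem duplication, often lie in clusters. Dppa2 is a SAP domain protein of pluripotent and germ cells.

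The sequence in front of the TSS shows how far the promoters in this family differ. The 150 bases upstream of the most upstream TSS are printed 5′ to 3′ in the direction of transcription, from the mm9 genome, with each CpG in capitals. Zfp2 (chr11:50729668-50729817, minus strand) had the highest peak score among the bound genes and Zfp629 (chr7:134759312-134759461, minus strand) the lowest, with its peak centred on a TSS further downstream. Zfp119a (chr17:56018128-56018277, minus strand) and Zfp119b (chr17:56084598-56084747, minus strand) are bound neighbours. Zfp57 (chr17:37137958-37138107, plus strand) and Zfp281 (chr1:138521328-138521477, plus strand) had no peak.
Zfp2: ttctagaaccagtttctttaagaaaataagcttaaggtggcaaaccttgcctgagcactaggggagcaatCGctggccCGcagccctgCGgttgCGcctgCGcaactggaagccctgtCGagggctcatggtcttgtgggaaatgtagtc
Zfp629: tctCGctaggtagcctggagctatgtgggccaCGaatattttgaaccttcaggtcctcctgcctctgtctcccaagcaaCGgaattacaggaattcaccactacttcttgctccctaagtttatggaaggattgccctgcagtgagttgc
Zfp119a: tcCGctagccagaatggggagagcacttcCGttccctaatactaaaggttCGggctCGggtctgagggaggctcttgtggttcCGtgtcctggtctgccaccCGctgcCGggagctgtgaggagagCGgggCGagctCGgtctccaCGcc
Zfp119b: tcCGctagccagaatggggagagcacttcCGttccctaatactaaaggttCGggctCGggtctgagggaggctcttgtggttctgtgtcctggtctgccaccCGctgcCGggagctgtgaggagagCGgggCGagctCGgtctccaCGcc
Zfp57: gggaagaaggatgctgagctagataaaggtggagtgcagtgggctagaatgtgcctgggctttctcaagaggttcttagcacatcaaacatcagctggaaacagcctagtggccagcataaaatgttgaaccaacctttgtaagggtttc
Zfp281: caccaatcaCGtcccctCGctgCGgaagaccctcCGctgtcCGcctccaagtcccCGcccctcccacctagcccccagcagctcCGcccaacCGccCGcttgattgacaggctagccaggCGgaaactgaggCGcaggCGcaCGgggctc
The stretch held 6 CpGs at Zfp2 and 3 at Zfp629. Zfp281, which had no peak, held 13 CpGs, and Zfp57 held 0. The stretches of Zfp119a and Zfp119b, with 11 and 10 CpGs, differed at 1 of 150 bases, and that of Zfp959, the remaining bound gene of the locus (chr17:56031457-56031606, plus strand), had the same 150 bases as Zfp119a.

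The names were checked against the proteins that the annotation encodes. A C2H2 pattern was found in 350 of the 370 Zfp entries and in 30 of the 32 bound entries. The bound entries without it were Zfp839 and the Zfp664 entry ENSMUSG00000051911, while the other Zfp664 entry, ENSMUSG00000079215, encodes 9 fingers. No bound gene had a pattern of the CCCH type, the finger by which Zfp36 and its relatives bind AU-rich elements of messenger RNA. Among all Zfp entries this pattern was found only in Zfp36, Zfp36l1, Zfp36l2 and Zfp36l3, so its absence from the bound genes says little.

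The 31 peaks at bound Zfp genes were near the middle of the list in strength. The peak score is the negative log10 of the p-value that MACS gave a peak over the control, multiplied by 10. It had a median of 218 at bound Zfp genes (quartiles 137 and 316, range 105 to 940.1) and of 228 over all peaks. A score of at least 200 was reached by 17 of the 31 peaks and by 59.3% of all peaks. The median peak width was 1440 bp, against 1433 bp over all peaks. The TSS lay inside the peak for 30 of the 32 entries. Midpoints were downstream of the TSS in 20 entries and upstream in 12, and their median position over the 31 peaks was 44.5 bp downstream. By the models of the bound gene itself, the midpoint fell in a UTR for 8 of the 32 entries, in a coding exon for 6, in an intron for 7 and upstream of the gene for 11. Both Zfp664 entries, which share a peak, are among the 11.

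**Figure D1:**
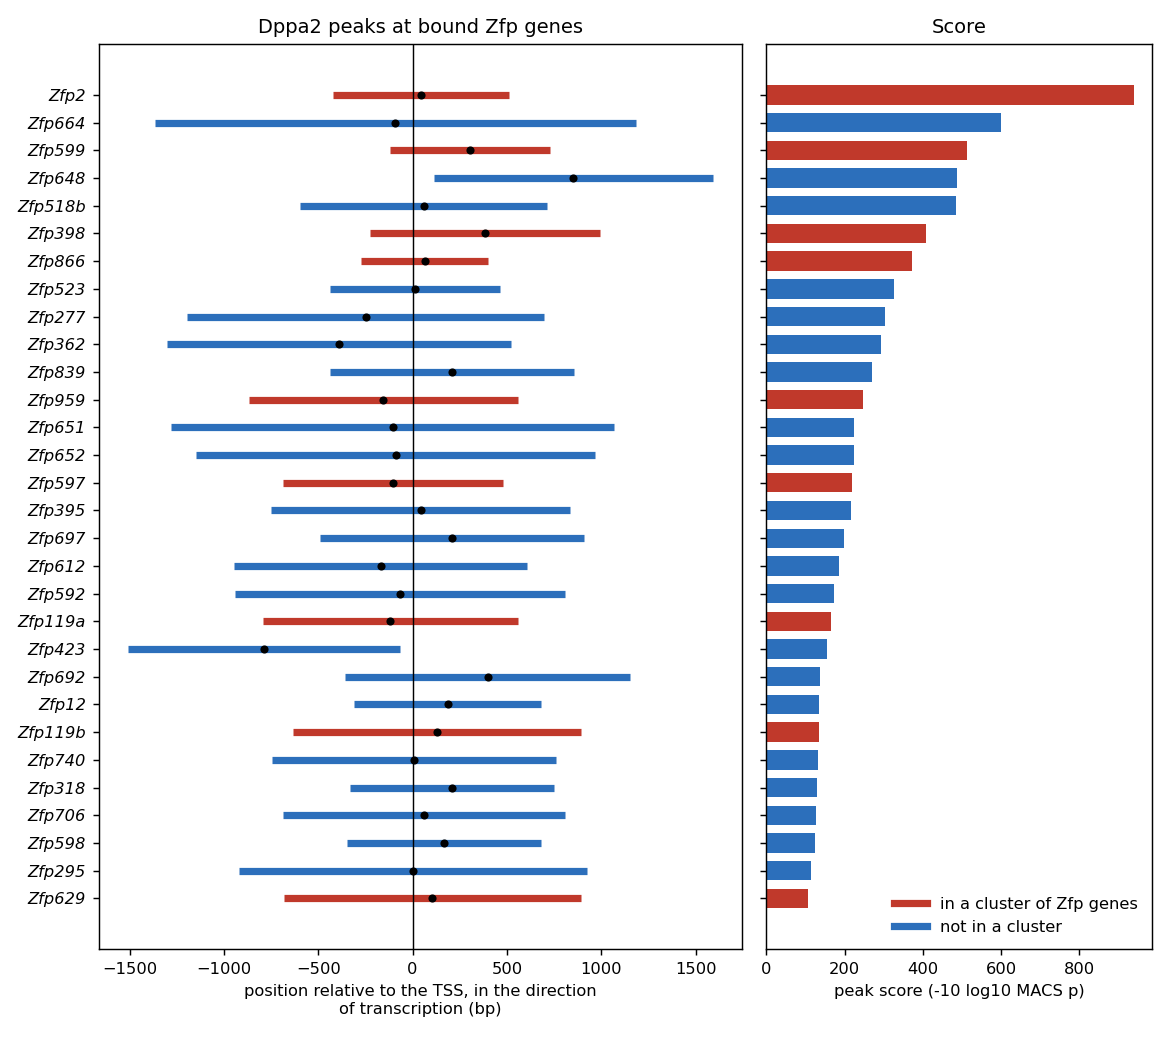
Left, the Dppa2 peak at 30 of the 31 bound Zfp symbols, drawn relative to the TSS nearest to the midpoint in the direction of transcription (bp), with the midpoint as a dot; right, the peak score. Red marks genes in a cluster of Zfp genes and blue the others. Scores run from 105 at Zfp629 to 940.1 at Zfp2, and the peaks of Zfp648 and Zfp423 do not cover the TSS.

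At the upper end, Zfp2 (ENSMUSG00000049321) stood apart with a score of 940.1, rank 60 of 3336. This gene encodes 13 C2H2 fingers without a KRAB pattern and is transcribed from the minus strand (chr11:50712214-50729667). The peak at chr11:50729120-50730057 had its midpoint in an intron 44.5 bp downstream of a TSS. Zfp664 followed with a score of 599 and the widest peak of the group, 2548 bp at chr5:125341696-125344243, which also covers the start of the divergent gene Ccdc92. Zfp599, a KRAB gene with 10 fingers on chromosome 9, had a score of 512. Zfp648 on chromosome 1 had a score of 488 and Zfp518b on chromosome 5 of 486. The scores of the next genes were 409 at Zfp398, 374 at Zfp866, 327 at Zfp523, 304 at Zfp277 and 293 at Zfp362. Zfp523 is the mouse counterpart of human ZNF76, a close relative of the promoter factor ZNF143.

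At the lower end, 5 genes had scores under 130, near the minimum of 100 that the authors' p-value limit sets. Zfp318, known for its part in IgD expression in B cells, had a score of 129.7, and Zfp706, a small protein tied to the exit of ESCs from self-renewal, had a score of 128. Zfp598, a ubiquitin ligase that acts on collided ribosomes, had a score of 125.5. Zfp295, a BTB domain protein also known as Zbtb21, had a score of 114 and Zfp629, with 19 fingers, of 105. The 9 genes Zfp839, Zfp651, Zfp652, Zfp697, Zfp612, Zfp592, Zfp692, Zfp12 and Zfp740 had scores from 131 to 270.3, and the remaining genes are given with their clusters or roles.

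The bound genes nearest to the 1000 bp limit were Zfp648, with the midpoint 852 bp downstream of the TSS in a coding exon, and Zfp423, with the midpoint 788.5 bp upstream. All other bound genes lay within 500 bp. Just outside were Zfp867, with the nearest midpoint 2269.5 bp from a TSS, and Zfp786, with the nearest midpoint 5214.5 bp away in the peak of its neighbour Zfp398. Over the 338 unbound entries the nearest midpoint was a median of 200.4 kb away, and for 6 of them it was within 10 kb.

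Some peaks can be assigned to a neighbour as well as to the Zfp gene. In 8 of the 32 entries, among them both Zfp664 entries, the TSS of another gene lay within 1 kb of the midpoint. In 3 of these that TSS was the nearer one. The nearer genes were Dock4 at the peak of Zfp277, Nat15 at that of Zfp597 and Gm20422 at that of Zfp866. Among the 48 Zfp entries with a gene on the opposite strand starting within 1 kb of the TSS, 8 were bound (16.7%, 95% exact interval 7.48 to 30.2%). Among the 322 without such a gene 24 were bound (7.45%, interval 4.83 to 10.9%), and the intervals overlap. The 8 bound entries with such a gene count Zfp664 at both of its entries, which share a peak and the neighbour Ccdc92. Of all protein-coding genes 14.2% were bound, and the share among those with such a neighbour was not determined. Zfp866 had a second peak with a score of 176.6, its midpoint 177 bp upstream of another TSS of the gene, where the divergent gene Atp13a1 starts.

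A hand-made list of 43 Zfp genes with known roles does not hold every gene with a known role (Zfp706 and Zfp523 are not on it). Of the 43, 4 were bound (9.30%, 95% exact interval 2.59 to 22.1%), beside 8.65% of all Zfp entries and 14.2% of all protein-coding genes. These were Zfp395, Zfp423, Zfp318 and Zfp598. Zfp395 had a score of 217 with the midpoint 42.5 bp downstream of the TSS. Zfp423, which encodes 27 fingers, partners with early B-cell factors and acts in fat and cerebellar development, had a score of 154. KRAB genes well known from work in ESCs had no peak, like 158 of the 166 Zfp entries with a KRAB pattern. For Zfp57, which maintains methylation at imprinted loci, the nearest midpoint was 193 kb from a TSS. The distance was 24.6 kb for Zfp809, which silences murine leukaemia viruses, and 18.6 kb for Zfp568, which represses a placental transcript of Igf2. Zfp281 and Zfp143, both C2H2 regulators in ESCs, had the nearest midpoint of the list 279 and 43.0 kb from a TSS. Also without a peak were Zfp445, Zfp322a, Zfp296, Zfp521, Zfp36, Zfp36l1, Zfp36l2, Zfp36l3, Zfp335, Zfp462, Zfp503, Zfp703, Zfp148, Zfp161, Zfp238, Zfp110, Zfp106, Zfp207, Zfp217, Zfp219, Zfp366, Zfp385a, Zfp750, Zfp516, Zfp451, Zfp64, Zfp326, Zfp622, Zfp346, Zfp259, Zfp91, Zfp384, Zfp467 and Zfp263.

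By protein type, the bound share was 4.82% among Zfp genes with a KRAB pattern (8 of 166, 95% exact interval 2.10 to 9.27%) and 11.8% among those without (24 of 204, interval 7.69 to 17.0%). The share of all protein-coding genes, 14.2%, lies above the first interval and inside the second, and the 2 intervals overlap. The promoters of these groups also differ in CpG content. The median CpG observed-to-expected ratio, described below, was 0.524 with a KRAB pattern and 0.691 without. The part of CpG content in the KRAB shares was not tested. The 8 bound KRAB genes were Zfp599, Zfp398, Zfp866, Zfp959, Zfp612, Zfp119a, Zfp12 and Zfp119b. The pattern describes the core of the KRAB-A box. Of the 296 protein-coding genes that match it 89.2% also had a C2H2 finger, so some matches may lie outside a KRAB domain, and diverged domains can be missed.

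Bound entries had a median of 7 C2H2 patterns (quartiles 4 and 10) and unbound entries of 10 (quartiles 6 and 13). With 10 or more fingers, 9 of 198 entries were bound (4.55%, 95% exact interval 2.10 to 8.45%). With 5 to 9 fingers 13 of 101 were bound (12.9%, interval 7.04 to 21.0%), and with 1 to 4 fingers 8 of 51 (15.7%, interval 7.02 to 28.6%). The intervals of these classes overlap. The parts of the KRAB pattern and of CpG content in the shares by finger number were not tested. The median protein length was 558 residues in bound and 567.5 in unbound entries. Among the 145 entries with neither a KRAB pattern nor a cluster, 20 were bound (13.8%, interval 8.63 to 20.5%). Among the 60 KRAB entries outside clusters 2 were bound (3.33%, interval 0.406 to 11.5%), and among the 106 in clusters 6 (5.66%, interval 2.11 to 11.9%). Among the 59 entries in clusters without a KRAB pattern 4 were bound (6.78%, interval 1.88 to 16.5%). The intervals with and without KRAB overlapped both in clusters and outside them, and the shares were closer in clusters.

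For zinc finger genes that carry other names, 4 of 100 with a KRAB pattern and a C2H2 finger were bound (4.00%, 95% exact interval 1.10 to 9.93%). Of 207 with at least 3 fingers and no KRAB pattern, 28 were bound (13.5%, interval 9.18 to 19.0%). Each interval holds the share of the Zfp genes with or without KRAB.

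**Figure D2:**
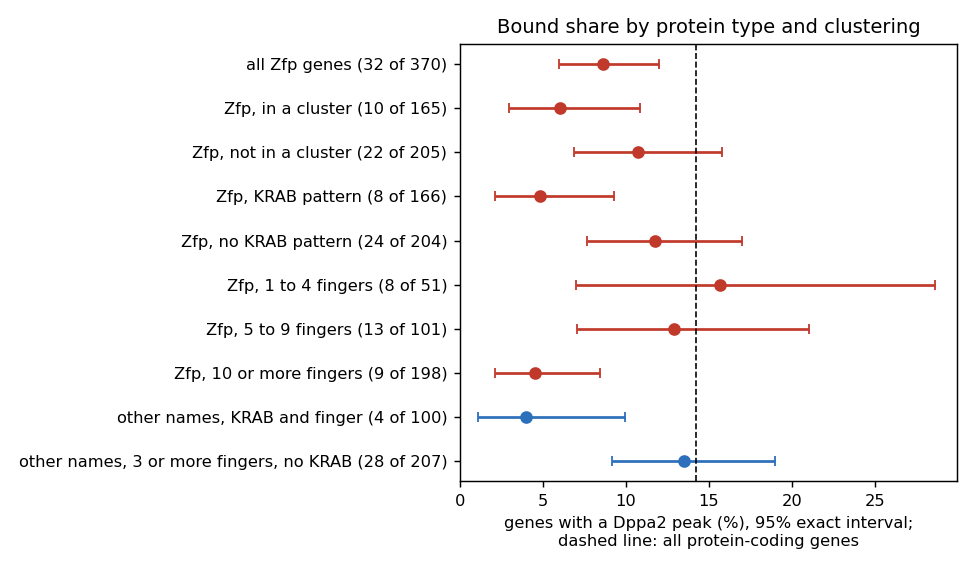
Share of genes with a Dppa2 peak (%, points) with 95% exact intervals (bars), for Zfp genes by clustering, KRAB pattern and finger number (red) and for zinc finger genes of other names (blue). The dashed line is the share of all protein-coding genes, 14.2%, which lies to the right of the intervals for all Zfp genes, for those in clusters, with KRAB or with 10 or more fingers, and for KRAB genes of other names.

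Bound Zfp genes lay on 14 of the 20 chromosomes that hold Zfp genes, with at most 7 on a chromosome. Chromosome 7 holds the most Zfp entries, 87, of which 2 were bound (2.30%, 95% exact interval 0.280 to 8.06%), beside 10.0% of its other protein-coding genes. Chromosome 13 holds 38, of which 0 were bound (exact upper limit 9.25%), beside 15.7% of its other genes. Chromosome 17 holds 45, of which 7 were bound (15.6%, interval 6.49 to 29.5%), beside 13.6% of its other genes. The 84 Zfp entries on chromosomes 2, 10, 13, 18, 19 and X were all unbound. Of other genes 13.9% were bound on chromosome 2, 14.9% on 10, 17.2% on 18, 13.5% on 19 and 1.84% on X. In that order these chromosomes hold 18, 5, 11, 3 and 9 Zfp entries, with exact upper limits of 18.5, 52.2, 28.5, 70.8 and 33.6%. Each of these limits lies above the share of other genes.

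To describe clustering, Zfp genes were joined when the TSSs of neighbours lay at most 200 kb apart, and runs of at least 3 genes were called clusters. There were 25 clusters with 165 Zfp entries, of which 10 were bound (6.06%, 95% exact interval 2.94 to 10.9%). Of the 205 entries outside clusters 22 were bound (10.7%, interval 6.85 to 15.8%), so these intervals overlap. Clusters held 31.3% of the bound entries (interval 16.1 to 50.0%) and 45.9% of the unbound ones (interval 40.5 to 51.3%). Of the 82 other protein-coding genes that start within the clusters 6 were bound (7.32%, interval 2.73 to 15.2%). The median distance to the nearest Zfp gene was 1102 kb for bound symbols and 60.8 kb for unbound genes. The groups were less far apart at short range. Another Zfp gene lay within 50 kb for 10 of the 31 bound symbols (32.3%) and for 156 of the 338 unbound entries (46.2%).

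In 17 of the 25 clusters no Zfp gene was bound. Among them were the largest, with 23 entries on chromosome 13, 14 entries on chromosome 7 that include Zfp568, another 12 on chromosome 7 and 11 on chromosome 17. A single gene was bound in 7 clusters. They included Zfp629 among 8 on chromosome 7, Zfp398 among 7 on chromosome 6, Zfp2 among 6 on chromosome 11, Zfp866 among 5 on chromosome 8, Zfp599 among 5 on chromosome 9 and Zfp597 among 3 on chromosome 16. The peak of Zfp597 had a score of 218. Zfp599 lies in the same cluster as the unbound Zfp809.

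**Figure D3:**
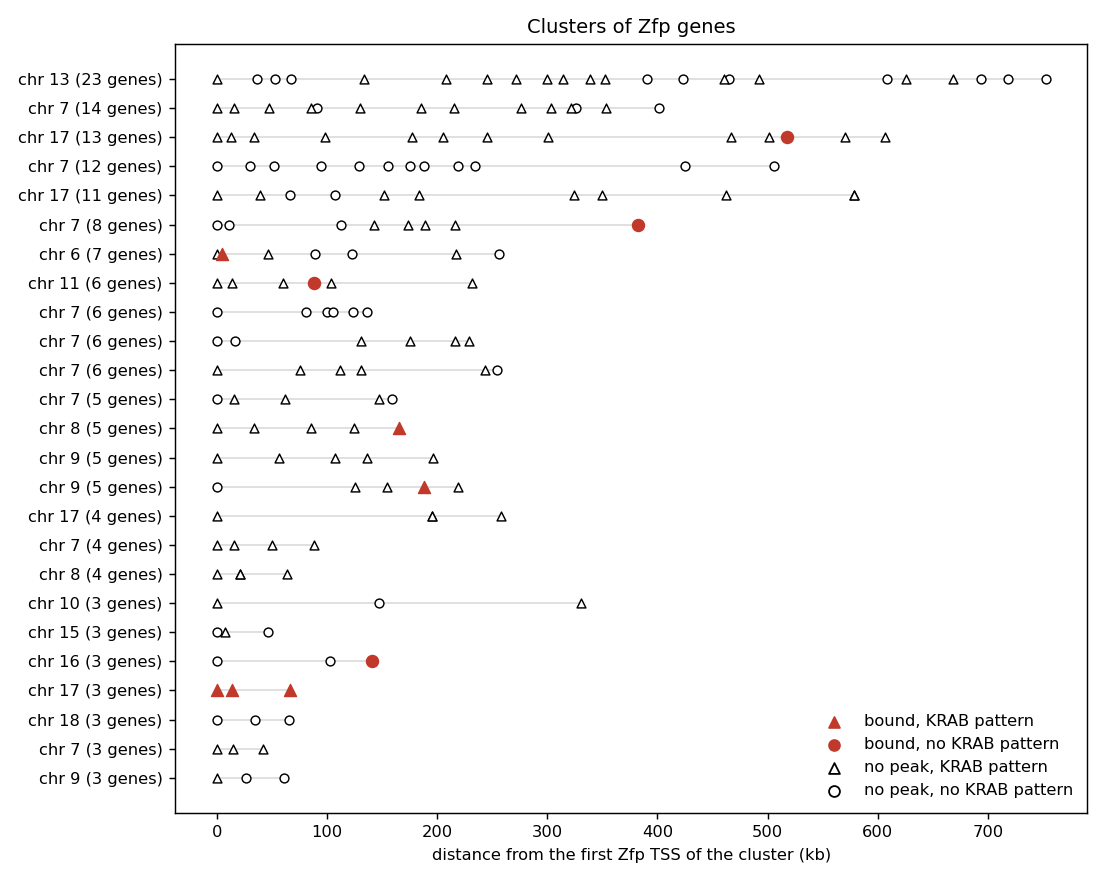
The 25 clusters of Zfp genes, 1 per line, with each TSS at its distance from the first TSS of the cluster (kb). Filled red symbols are bound, open symbols have no peak, triangles carry a KRAB pattern and circles do not. The cluster of 23 on chromosome 13 has no bound gene, and in a cluster of 3 on chromosome 17 all 3 are bound.

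In the remaining cluster all 3 Zfp genes were bound. Zfp119a, Zfp959 and Zfp119b, KRAB genes with 9 fingers each, lie within 66.5 kb on chromosome 17. Their peak scores were 166 at Zfp119a, 247 at Zfp959 and 134 at Zfp119b, and the peaks span chr17:56017570-56018920, chr17:56030739-56032165 and chr17:56083704-56085230. The peak sequences are near-identical. They aligned at 95.7% identity over 1194 bp for Zfp119a and Zfp119b, 96.0% over 1359 bp for Zfp119a and Zfp959 and 96.1% over 1202 bp for Zfp119b and Zfp959. Of the 36-mers in these peaks, 62.0% at Zfp119a, 59.4% at Zfp959 and 42.2% at Zfp119b occur at more than 1 place in mm9. Reads with several alignments were kept by the authors at the best of them, so reads of the 3 copies cannot be fully told apart, and the part of repeated sequence in these peaks was not tested. No other bound Zfp gene had another bound Zfp gene within 1000 kb.

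Repeated sequence was otherwise rare in these peaks, with no repeated 36-mer in 22 of the 31 and more than 10% repeated in 4, among them the peaks of the 3 copies. Of the 24 Zfp entries with more than 50% of the 36-mers repeated in the 1000 bp around the TSS 3 were bound (12.5%, 95% exact interval 2.66 to 32.4%), and these were the copies on chromosome 17. Of the other 346 entries 29 were bound (8.38%, interval 5.68 to 11.8%).

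Promoters of bound Zfp genes had a higher median GC content and CpG ratio than those of unbound ones. For each gene the TSS shared by the most transcripts was used, and among TSSs that tied the most upstream one. Where each transcript has its own TSS, this is the most upstream annotated TSS. Over the 1000 bp around it, the median GC content was 62.8% in bound entries (quartiles 58.1 and 70.5%) and 52.9% in unbound entries (quartiles 47.9 and 58.4%). The CpG observed-to-expected ratio is 1 where CpGs are as frequent as the C and G content alone would give. Its median was 0.826 in bound entries (quartiles 0.685 and 0.908) and 0.576 in unbound ones (quartiles 0.348 and 0.714). For other protein-coding genes the medians of the ratio were 0.776 when bound and 0.463 when unbound. The groups overlap widely, and 39 unbound Zfp entries had a ratio of at least the bound median. Among these was Zfp281, with a ratio of 0.928.

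Among the bound genes, Zfp592 had the lowest ratio, 0.186, and Zfp648 had 0.250, Zfp629 0.314 and Zfp599 0.483. At Zfp592 the TSS used here is not the one at the peak, and the peak itself had a ratio of 0.762. Zfp629 has 9 transcripts with 9 TSSs, and its peak, at a TSS further downstream than the one used here, had a ratio of 0.616. The peak of Zfp648, downstream of the TSS, had a ratio of 0.590. The highest ratios were 1.08 at Zfp362 and 1.00 at Zfp318. The median was 0.695 for bound genes in clusters and 0.881 for bound genes outside them, and for unbound genes it was 0.527 in clusters and 0.632 outside.

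**Figure D4:**
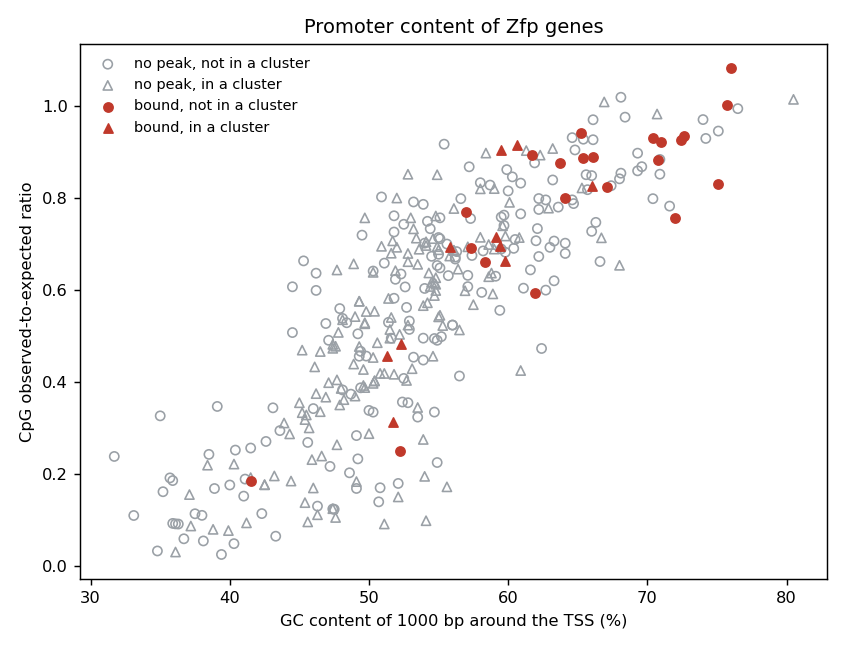
GC content (%) and CpG observed-to-expected ratio of the 1000 bp around the TSS for each of the 370 Zfp entries, bound in red and without a peak in grey, with triangles for genes in clusters. Bound genes lie mostly at the upper right, with medians of 62.8% and 0.826 against 52.9% and 0.576.

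Genes were then set side by side at like CpG ratios, in quintiles of all protein-coding genes. In the highest quintile 17 of 61 Zfp entries were bound (27.9%, 95% exact interval 17.1 to 40.8%), and 31.6% of other genes (interval 30.2 to 33.0%). In the next quintile 9 of 97 were bound (9.28%, interval 4.33 to 16.9%), and 18.7% of other genes (interval 17.6 to 19.9%). In the middle quintile 3 of 110 were bound (2.73%, interval 0.566 to 7.76%), and 13.8% of other genes (interval 12.8 to 14.9%). The intervals of Zfp and other genes were separate in the last 2 of these quintiles. Of the 110 entries in the middle quintile 63 were in clusters, and 2 of these were bound. In the lower quintiles 3 of 60 and 0 of 42 Zfp entries were bound, beside 5.94% and 1.33% of other genes, with overlapping intervals. These 3 were Zfp592, Zfp648 and Zfp629, whose peaks lay at another TSS or downstream of the TSS. Their peaks had higher ratios than the windows used here, 0.762, 0.590 and 0.616.

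**Figure D5:**
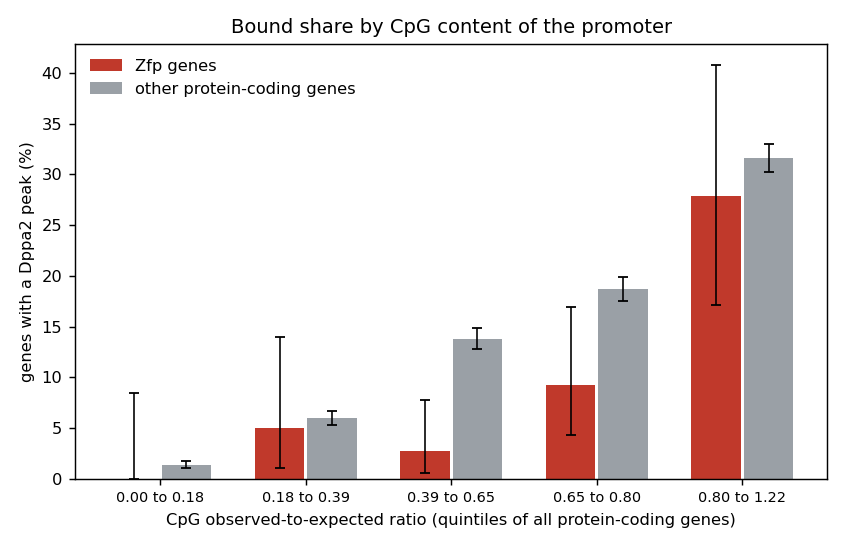
Share of genes with a Dppa2 peak (%, bars from 0) with 95% exact intervals, for Zfp genes (red) and other protein-coding genes (grey), by quintiles of the CpG observed-to-expected ratio around the TSS. The share of Zfp genes is 2.73% in the middle quintile and 27.9% in the highest, against 13.8% and 31.6% of other genes.

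Short motifs were searched on both strands of the 300 bases from 250 before to 50 after the same TSS as for the CpG ratio. GGGCGG, the GC box read by Sp and Klf factors, was in 20 of 32 bound Zfp entries (62.5%), in 37.6% of unbound Zfp entries, in 68.4% of other bound genes and in 43.7% of all protein-coding genes. CGCG was in 27 bound entries (84.4%), in 51.8% of the unbound ones, in 75.01% of other bound genes and in 47.0% of all genes. TATAAA was in 0 of 32 bound entries, in 11.8% of the unbound ones, in 6.28% of other bound genes and in 13.4% of all genes. TGCCGC, which Zfp57 protein reads when methylated, was in 8 bound entries (25.0%), in 14.2% of the unbound ones, in 24.2% of other bound genes and in 13.9% of all genes. CACGTG was in 1 bound entry (3.13%), in 7.40% of the unbound ones, in 8.58% of other bound genes and in 7.75% of all genes. The shares of the GC box, CGCG and TGCCGC in bound Zfp entries were thus nearer to those in other bound genes than to those in unbound Zfp entries. Motifs that hold CpGs move with the CpG content given above, whose part in these shares was not tested, and a match is not a binding site.

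The Nrf1 motif, the palindrome-like 10-base core read by the promoter factor Nrf1, with any base allowed at position 5, was in 8 of 32 bound Zfp entries (25.0%), or 7 of 31 symbols. It was in 26 of 338 unbound Zfp entries (7.69%), in 8.03% of the other bound genes and in 6.09% of all protein-coding genes. A match of each gene is printed 5′ to 3′ on the strand that holds it, from mm9, with the motif in capitals and 7 bases on each side. They are shown because this motif, of the 6 searched, differed most in share between bound Zfp genes and other bound genes.
Zfp2: tgcggttGCGCCTGCGCaactgga
Zfp664: cggcctgGCGCGTGCGCacgcgcg
Zfp518b: cggcggcGCGCGTGCGCaatgcgg
Zfp652: aagcgtcGCGCATGCGCagcccac
Zfp692: gctgtctGCGCCTGCGCcccggga
Zfp12: gcatgctGCGCGTGCGCacttctg
Zfp740: aagggcgGCGCCTGCGCcgtggcg
The capitals lie at chr11:50729715-50729724 (minus strand) for Zfp2, chr5:125343030-125343039 (plus) for Zfp664, chr5:39076054-39076063 (plus) for Zfp518b, chr11:95573917-95573926 (plus) for Zfp652, chr11:58120561-58120570 (minus) for Zfp692, chr5:143996816-143996825 (plus) for Zfp12 and chr15:102033896-102033905 (minus) for Zfp740. All 7 lie inside the Dppa2 peak of their gene, which the choice of genes by a peak at the TSS nearly fixes. Their centres lay between -506.5 bp (Zfp692) and 65 bp (Zfp664) from the peak midpoint, with minus for upstream. The peak scores of these genes ran from 131 at Zfp740 to 940.1 at Zfp2. The motif contains CGCG where position 5 is G, as at Zfp664, Zfp518b and Zfp12. In the highest quintile of the CpG ratio it was in 5 of 17 bound Zfp entries (29.4%), or 4 of 16 symbols since both Zfp664 entries share the match, in 7 of 44 unbound Zfp entries (15.9%), in 12.5% of the other bound genes and in 16.4% of the other unbound genes. The motif shares carry no intervals, those of bound Zfp entries rest on few genes, and the differences were not tested.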

How the data were processed

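V5 ChIP-seq was done on CGR8 ESCs with and without V5-Dppa2. Per the authors, low-complexity reads were dropped, and the others were mapped on mm9 with Bowtie 0.12.7. They reported the best of several alignments, removed duplicates and called peaks with MACS 1.4.2. They retained peaks of at least 100 reads whose p-value did not exceed 1e-10. The submitters' processing notes also name Picard 1.81. The deposited score is taken as 10 times the negative log10 of this p-value, as MACS writes it. The list gives no summits, so midpoints were used.

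Peaks were set against GENCODE M1 on mm9. Finger and KRAB patterns were searched in translated GENCODE coding sequences. 36-mers were counted over both strands of mm9, and peak sequences were aligned with BLAST 2.17.0. Genes were named by score (10 highest, 5 lowest), membership in a cluster, a list of 44 known roles (43 found) and distance to the 1000 bp limit. The bound genes and these lists were chosen with earlier results of these data known. The values of 1 bound gene and some upstream sequences are not reported here. Genes are not replicates, so no test was run. Alternatives changed the score, window, TSSs, clusters, content window and KRAB pattern. The steps were tested on simulated data. Python 3.11.15, numpy 2.4.6, scipy 1.17.1, numba 0.67.0, pysam 0.24.0 and matplotlib 3.10.9 were used.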

Additional observations from a re-analysis of the deposited data

How the results depend on the processing

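No paired analysis was possible because only 1 library had a peak list, so no replicate could be left out either. The unknown depth limits how many weaker peaks could be seen. Over 17 alternatives, 113 of 125 values stayed within the 95% interval of the value given in the report or, for the number of genes, within 1.5 times of it. The other 12 came from alternatives that change which peaks, bases or neighbours are counted. At a score of at least 200, 18 Zfp entries were bound (4.86%, beside 8.06% of all protein-coding genes), with a median score of 304, and the bound share was 4.24% in clusters and 5.37% outside, and 2.41% with KRAB and 6.86% without, so the shares in and outside clusters nearly met. Over 500 bp around the TSS, unbound Zfp genes had a median CpG ratio of 0.644 and a GC content of 55.9%. Over 2000 bp these were 0.454 and 48.5% in unbound and 0.692 and 55.8% in bound genes. With no other protein-coding gene allowed between neighbours, 12.5% of the bound entries were in a cluster. The bound share ranged from 3.48 to 6.21% in clusters and from 5.37 to 13.4% outside, and from 2.41 to 5.83% with KRAB and from 6.86 to 11.9% without. A window of 2000 bp, any base of the peak and the TSSs of protein-coding transcripts gave the same counts as the report, so they say nothing about stability. Counting 1 entry per symbol and forming clusters over all genes with at least 3 C2H2 patterns were alternatives chosen after seeing the data.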
